A study of Homo sapiens with 12 samples.

Results

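KDM2B binding was described at 10 genes of cytokine receptor and JAK-STAT signalling in 7 human leukaemia cell lines. The genes were IL7R, FLT3, KIT, JAK1, STAT5A, SOCS1, SOCS2, SOCS3, CISH and PIM1, and the rule that selects their peaks uses gene names and positions only, although the set was drawn up with earlier results of these data known. Each gene was given 1 window of the hg19 genome, and every KDM2B peak that overlapped a window by at least 1 bp was counted for that gene. The 10 windows measured 12 to 143 kb (median 23.5 kb) and 479 kb together. They held 126 of the 79473 peaks in the 7 lists (0.159%).

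The data were chromatin immunoprecipitation and sequencing (ChIP-seq) peak lists, 1 per line, from cultures grown in IMDM with 10% FBS and precipitated with a Millipore antibody to KDM2B. K562 is a line from chronic myeloid leukaemia in blast crisis, and acute lymphoblastic leukaemia gave the rest: SUP-B15 and REH of B-cell type (B-ALL), and the 4 lines SIL-ALL, JURKAT, HPB-ALL and DND41 of T-cell type (T-ALL). These lineages are background knowledge of the names, as is the BCR-ABL1 fusion kinase of K562 and SUP-B15. With 1 KDM2B library per line there were no replicates, so a peak missing from a list cannot be told apart from a weaker library. The lists ran from 5942 peaks (K562) to 15304 (SIL-ALL) and began at different scores (about 50 in JURKAT and the 3 lines without T-cell origin, 60 in DND41, about 80 in SIL-ALL and HPB-ALL), and the read depth behind them is unknown.

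KDM2B recruits a variant Polycomb complex to CpG-rich DNA through its CXXC zinc finger, and it removes methyl groups from histone H3. In the pathway studied, a cytokine binds its receptor, receptor-bound Janus kinases (JAKs) phosphorylate STAT factors, and STATs enter the nucleus and turn on genes. Among those genes are the SOCS proteins and CISH, which shut the receptor down again, and the survival kinase PIM1. FLT3 and KIT are receptor tyrosine kinases of blood progenitors, and IL7R is the alpha chain of the interleukin-7 receptor, on which lymphoid precursors depend.

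Because the CXXC finger reads CpG dinucleotides, the promoter sequence of the genes at the ends of the range is shown first. The sequences are the 250 bases before the gene start from RefSeq, on build GRCh38.p14, 5′ to 3′ on the gene's strand, with every CpG in capitals. SOCS1 and PIM1 had peaks in every line, KIT in 3 lines and IL7R in none.
SOCS1: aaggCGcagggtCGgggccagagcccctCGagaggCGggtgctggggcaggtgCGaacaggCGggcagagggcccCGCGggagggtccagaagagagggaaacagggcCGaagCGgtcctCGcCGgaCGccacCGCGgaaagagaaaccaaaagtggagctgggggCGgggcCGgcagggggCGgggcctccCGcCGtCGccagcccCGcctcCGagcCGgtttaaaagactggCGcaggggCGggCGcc
PIM1: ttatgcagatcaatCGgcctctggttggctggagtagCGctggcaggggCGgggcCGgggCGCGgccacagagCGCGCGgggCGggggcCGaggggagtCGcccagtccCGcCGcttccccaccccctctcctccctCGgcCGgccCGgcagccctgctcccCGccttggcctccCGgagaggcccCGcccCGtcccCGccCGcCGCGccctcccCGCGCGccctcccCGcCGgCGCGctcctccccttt
KIT: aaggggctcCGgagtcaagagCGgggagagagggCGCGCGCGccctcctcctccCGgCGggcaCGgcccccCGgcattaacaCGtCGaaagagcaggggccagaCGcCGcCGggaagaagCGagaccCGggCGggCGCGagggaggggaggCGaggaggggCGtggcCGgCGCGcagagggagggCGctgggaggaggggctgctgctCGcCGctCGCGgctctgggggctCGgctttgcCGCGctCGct
IL7R: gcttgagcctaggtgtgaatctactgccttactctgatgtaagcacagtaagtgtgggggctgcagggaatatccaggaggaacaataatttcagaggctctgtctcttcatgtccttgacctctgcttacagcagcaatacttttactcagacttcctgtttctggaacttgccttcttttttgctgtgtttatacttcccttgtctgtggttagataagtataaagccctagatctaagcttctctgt
These 250 bases held 27 CpGs in SOCS1, 32 in PIM1, 34 in KIT and 0 in IL7R.

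CISH is shown with another feature in capitals, the letters TTCNNNGAA, the core of the palindromic element that STAT dimers recognise, searched on the forward strand because it reads the same on both.
CISH: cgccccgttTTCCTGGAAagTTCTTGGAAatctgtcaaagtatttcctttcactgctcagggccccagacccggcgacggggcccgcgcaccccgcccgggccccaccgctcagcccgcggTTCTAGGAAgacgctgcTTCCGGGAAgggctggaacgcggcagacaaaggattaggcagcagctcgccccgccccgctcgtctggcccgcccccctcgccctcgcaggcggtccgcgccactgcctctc
It matched 4 times, without overlap. In the whole promoter of 300 bases (250 before the start and 50 after) CISH was the only member with a match of the 9 that had an entry in the promoter table, and 7.66% of all 35116 promoters held at least 1. SOCS2 was not among the entries. A match is a description of reference sequence and was read in no line.

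KDM2B peaks were present at 9 of the 10 genes, and 4 genes (SOCS1, SOCS2, JAK1 and PIM1) had a peak in all 7 lines. Of the 70 pairs of gene and line, 51 held a peak. SOCS3 and FLT3 were called in 6 lines each, CISH and STAT5A in 4, KIT in 3 and IL7R in none. For scale, 0.705% of 121442 consecutive 25 kb tiles of hg19 held a peak in all 7 lines and 87.6% held none. The tiles include gene-free sequence, whereas every window holds a gene, so the 4 of 10 is set beside this share as a description only. With lists cut to the 5942 top-scored peaks each, JAK1 and PIM1 were the genes called in all 7 lines, because SOCS1 and SOCS2 lost their HPB-ALL peaks. When the lower-scored part of every list, below its median, was left out, only JAK1 was.

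**Figure D1:**
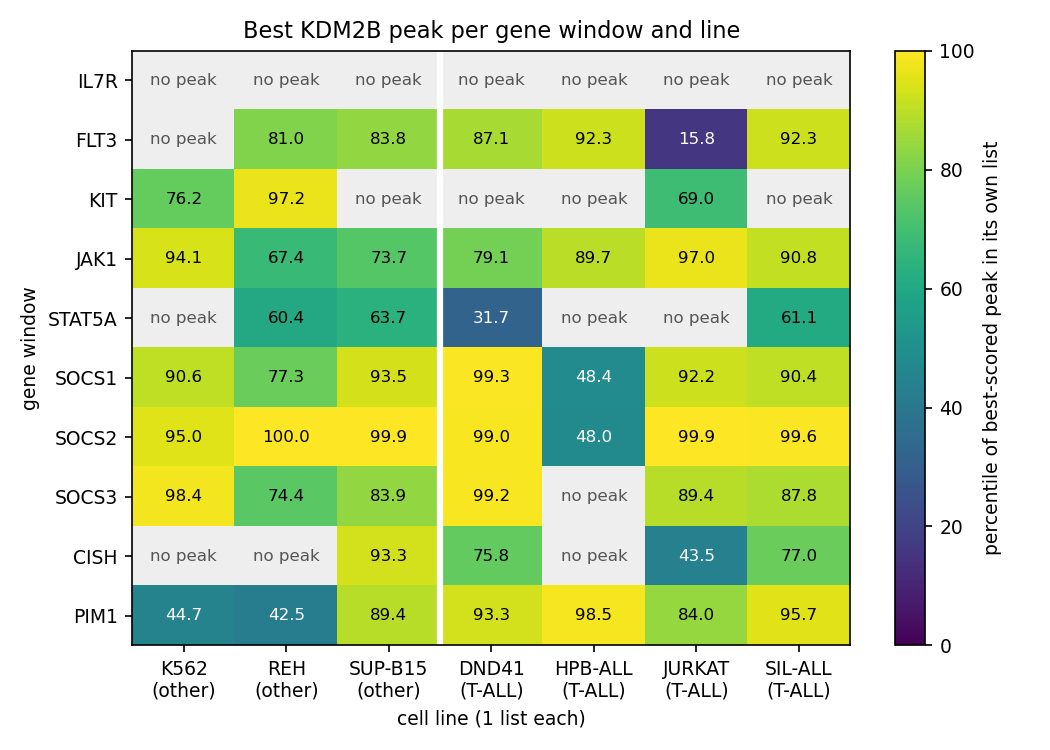
Best-scored KDM2B peak of each gene window (rows) in each of the 7 lines (columns), as the percentile of its score within its own list; grey cells had no peak. SOCS2 stood above percentile 95 in 5 lines, just under it in K562 and at 48.0 in HPB-ALL, and IL7R had no peak in any line.

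By line, 8 of the 10 windows held a peak in REH, SUP-B15, DND41, JURKAT and SIL-ALL, 6 in K562 and 5 in HPB-ALL. HPB-ALL lacked a peak at SOCS3, CISH, IL7R, KIT and STAT5A, and K562 at CISH, IL7R, FLT3 and STAT5A. The number of peaks in the windows was 12 in K562, 17 in REH, 18 in SUP-B15, 25 in DND41, 20 in SIL-ALL, 20 in JURKAT and 14 in HPB-ALL. As a share of each list these were 0.202%, 0.209% and 0.239% in K562, REH and SUP-B15 against 0.167%, 0.110%, 0.135% and 0.131% in DND41, HPB-ALL, JURKAT and SIL-ALL. The ranges of the shares in the 3 other lines and the 4 T-ALL lines did not overlap, while the T-ALL lists were 12765 peaks or longer and the other lists 8146 or shorter. With equal lists of 5942 peaks the groups did overlap. The windows then held 12 peaks in K562 and 15 each in SUP-B15 and REH, against 13 in DND41, 12 in SIL-ALL, 7 in JURKAT and 4 in HPB-ALL. With scores below 80.03 left out of every list, HPB-ALL and K562 each had a peak in 5 windows. REH and JURKAT then had 6, DND41 7, and SUP-B15 and SIL-ALL 8.

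The member peaks spread over the whole range of scores, and the highest gathered at SOCS2. A percentile is the share of a list's peaks with a score at or below that of the peak, and scores were deposited by the authors, who gave 1 to each peak. Of the 126 peaks, 15 (11.9%) stood at or above percentile 95 of their list, against 5.01% of all peaks. SOCS2 gave 8 of the 15, and the other 9 genes gave 7 of 107 (6.54%), near the share of all peaks. At the lower end, 20 member peaks stood below percentile 20. The median percentile of the member peaks was 68.3. Within lines it was 32.3 in HPB-ALL and 47.4 in JURKAT, and between 68.7 and 76.4 in the other lines.

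Most peaks lay 3 to 7 kb from the 5′ edge of the windows. Measured from the 5′ edge of each window in the gene's direction, 100 of the 126 peaks were centred between 3 and 7 kb, a band chosen after the positions were seen, and so was the best-scored peak in 48 of the 51 pairs. The window was 8.9 to 10.7 kb longer than the RefSeq gene on GRCh38 for SOCS1, SOCS3, CISH, IL7R, FLT3, KIT and PIM1, which would put the gene start about 5 kb inside the window if both flanks were equal. No hg19 gene annotation was used here, so the distance to the start itself was not measured. The windows of SOCS1, SOCS3, CISH and PIM1 measured only 12 to 15 kb, so there the band says little about nearness to an edge. In the 93 kb KIT window all 7 peaks lay in this band, as did 21 of 22 in the 143 kb JAK1 window and 9 of 10 in the 108 kb FLT3 window. SOCS2, with 7 of 19 peaks in the band, and SOCS3, with 12 of 22, held most of the exceptions.

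**Figure D2:**
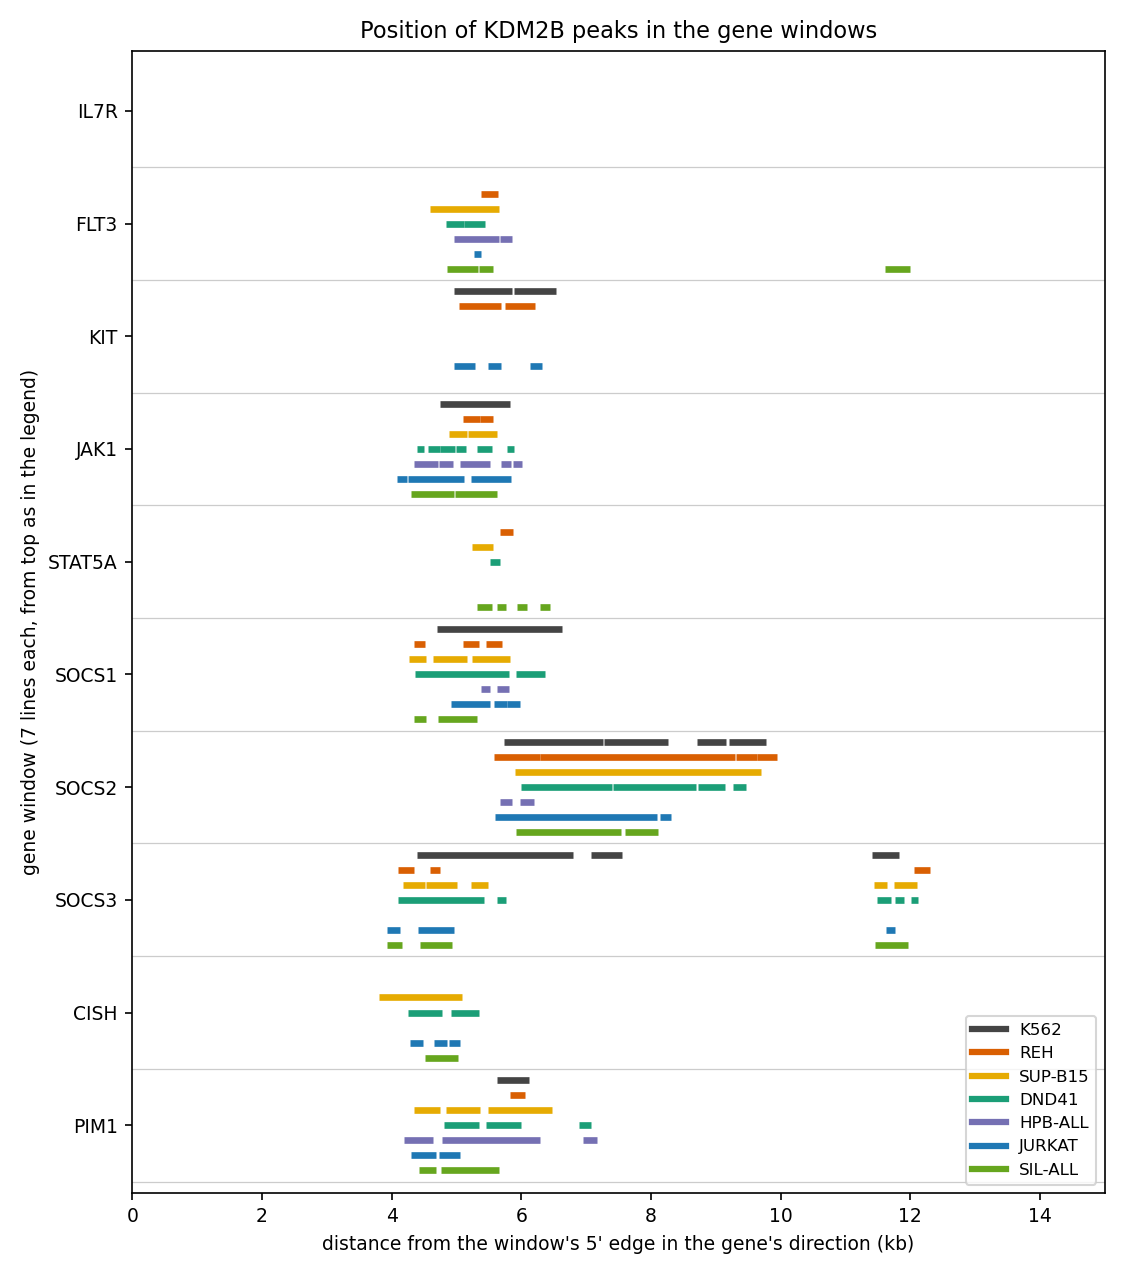
KDM2B peaks as bars along the distance in kb from the 5′ edge of each window, in the direction of the gene, with 7 rows per gene (1 per line). Peaks gathered at about 4 to 7 kb, SOCS2 reached farther into the window, and SOCS3 had a further group near 12 kb; 1 JAK1 peak of SUP-B15 at 53.9 kb and 1 STAT5A peak of SIL-ALL at 28.7 kb lie beyond the axis.

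Among the receptors, IL7R had no peak in its window (chromosome 5, 35.852 to 35.885 Mb) in any list. The nearest peak outside was 14981 bp away, in JURKAT, with a score of 50.9 at percentile 2.43. Peaks existed in the neighbourhood: within 1 Mb on either side there were 2 in K562, 3 in REH, 4 in SUP-B15, 7 in DND41, 14 in SIL-ALL, 9 in JURKAT and 10 in HPB-ALL. IL7R was also the member whose promoter held no CpG, and 3.96% of all promoters held none. Its reading in these lists is the absence of a listed peak, not a measured level.

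FLT3 (chromosome 13, 28.572 to 28.68 Mb) was called in all 4 T-ALL lines, REH and SUP-B15, and not in K562. Its best peak scored 245 in DND41, 580 in SIL-ALL, 58.2 in JURKAT and 478 in HPB-ALL, at percentiles 87.1, 92.3, 15.8 and 92.3 of their lists. In REH and SUP-B15 it scored 103 and 144, at percentiles 81.0 and 83.8. JURKAT was the low line, with 1 peak of 115 bp, while the peaks of SIL-ALL covered 1080 bp and those of SUP-B15 1056 bp. The peaks of the 6 lines met in 1 merged region (28674337 to 28675409), in which peaks of different lists overlap by at least 1 bp. The exact permutation test of 4 T-ALL against 3 other lines over that region gave p = 0.429 (two-sided; Benjamini-Hochberg adjusted p = 0.980 over all regions). K562 had 2 peaks within 1 Mb of the window, against 12 to 23 in the other lines. Whether this sparse surround bears on the missing FLT3 peak was not tested. The JURKAT call was lost with equal lists, with scores below a list's median left out and with a common score floor (80.03, where the SIL-ALL list begins), which left 3 T-ALL lines.

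KIT (chromosome 4, 55.519 to 55.612 Mb), the receptor of stem cell factor, was the member called in the fewest lines apart from IL7R. REH had the best peak, with a score of 235 at percentile 97.2 and 1108 bp covered in all. K562 followed with 152 at percentile 76.2 and 1539 bp covered, and JURKAT with 108 at percentile 69.0 and 708 bp. SUP-B15, DND41, HPB-ALL and SIL-ALL had none. The 3 lines with a peak belong to the myeloid, B and T lineages, and the B-ALL and T-ALL lines were each divided at KIT. The exact permutation test of T-ALL against other lines over its region gave p = 0.486 (two-sided). REH and K562 had their KIT peaks in otherwise empty surroundings, with 1 further peak each within 1 Mb, whereas DND41, HPB-ALL and SIL-ALL had 9 to 11 such peaks and none at KIT. The remaining lines went the other way, JURKAT with 9 such peaks and a KIT peak, and SUP-B15 with 3 and none. The KIT promoter held 38 CpGs in 300 bases, and 91.3% of promoters held as many or fewer.

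JAK1 (chromosome 1, 65.294 to 65.437 Mb), the kinase shared by many cytokine receptors, had peaks in every line. The best peak scored 345 in K562, 109 in SUP-B15 and 82.2 in REH, at percentiles 94.1, 73.7 and 67.4. It scored 179 in DND41, 515 in SIL-ALL, 388 in JURKAT and 404 in HPB-ALL, at percentiles 79.1, 90.8, 97.0 and 89.7. The groups overlapped, K562 lying among the T-ALL lines. The site was divided unevenly: DND41 listed 6 separate peaks and HPB-ALL 5, where K562 listed 1 of 1085 bp. The main region ran from 65430988 to 65432752. HPB-ALL, low at SOCS1 and SOCS2 and without a peak at SOCS3, covered 1336 bp here, next to 1635 bp in JURKAT. The window length minus the RefSeq gene length on GRCh38 was -91.5 kb, so its promoter entry cannot be taken to lie at these peaks.

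STAT5A (chromosome 17, 40.435 to 40.464 Mb), a main effector of interleukin-7 and FLT3 signals, had the lowest placed peaks of the members that had any: its best percentile over the lines was 63.7. The best peak scored 75.4 in REH, 90.3 in SUP-B15, 76.3 in DND41 and 170 in SIL-ALL. Percentiles were 60.4, 63.7, 31.7 and 61.1, and no line reached the top 5% of its list. K562, HPB-ALL and JURKAT had no peak. SIL-ALL differed by having 5 small peaks that covered 815 bp, against 153 to 326 bp in the other 3 lines. The calls depended on the cut-off: equal lists left REH and SUP-B15 (2 lines), and the common score floor left SUP-B15 and SIL-ALL. The edge of this window matters too: 267 bp beyond it began a SIL-ALL peak with a score of 673 (percentile 94.2), and windows 5 kb wider gave STAT5A a peak in all 7 lines. The STAT3 window lies on that side and overlaps this one, so those peaks cannot be assigned to STAT5A. The same holds for the SIL-ALL peak at 40463614 to 40463742 (129 bp), which lies in the overlap and is counted in the 815 bp above. The STAT5A promoter held 3 CpGs, and 24.5% of promoters held as many or fewer.

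Among the feedback inhibitors, SOCS2 (chromosome 12, 93.958 to 93.976 Mb), which damps growth hormone and cytokine signals, carried the most prominent KDM2B sites of the set. The best peak scored 375 in K562, 1300 in SUP-B15 and 2752 in REH, and 977 in DND41, 1935 in SIL-ALL, 2284 in JURKAT and 131 in HPB-ALL. The REH peak (93964281 to 93967299, 3019 bp) had rank 1 of the whole REH list. The SUP-B15 and JURKAT peaks had rank 10 of theirs, the SIL-ALL peak rank 57, the DND41 peak rank 143 and the K562 peak rank 301. HPB-ALL stood apart with rank 6633 and percentile 48.0, where the next lowest line, K562, stood just under percentile 95.

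The SOCS2 site was also the broadest. Peaks covered 3543 bp in K562, 3800 bp in SUP-B15 and 4338 bp in REH, and 3304 bp in DND41, 2124 bp in SIL-ALL, 2656 bp in JURKAT and 407 bp in HPB-ALL. The covered length was greater in every one of the 3 other lines than in any T-ALL line, so the groups did not overlap at this gene. Of the 709 regions with a peak in every line 0.846% showed this order, and 0.44% of all regions did. It was seen in 1 of 10 genes and was not tested. Median peak width over whole lists is 552 bp in K562 and 350 bp in SUP-B15 against 213 to 253 bp in the remaining lists, and its part in this order was not tested. All peaks merged into 1 region of 4365 bp (93963581 to 93967945). All lines had a peak in its left part. Peaks ended at 93967945 in REH, 93967778 in K562, 93967701 in SUP-B15 and 93967462 in DND41, but at 93966312 in JURKAT, 93966107 in SIL-ALL and 93964197 in HPB-ALL. RefSeq lists the antisense gene SOCS2-AS1 within 5 kb of SOCS2, and peaks here were not assigned between them.

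**Figure D3:**
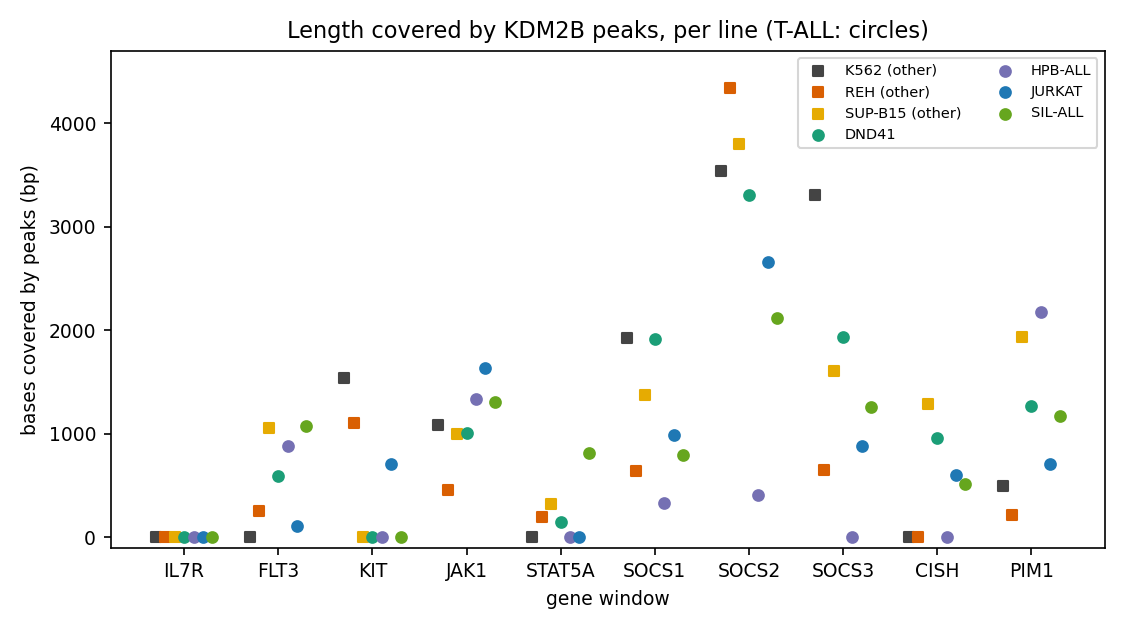
Bases covered by KDM2B peaks (bp, linear axis) in each gene window, 1 point per line, squares for K562, REH and SUP-B15 and circles for the T-ALL lines. At SOCS2 the squares lie at 3543 to 4338 bp, above all circles (407 to 3304 bp); at the other genes the groups overlap or both include lines at 0.

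SOCS1 (chromosome 16, 11.343 to 11.355 Mb), an inhibitor of JAK kinases, was called in every line. Its best peak scored 269 in K562, 96.1 in REH, 242 in SUP-B15, 1114 in DND41, 496 in SIL-ALL, 237 in JURKAT and 132 in HPB-ALL. DND41 was the high line, at rank 102 and percentile 99.3, and HPB-ALL the low one, at percentile 48.4. Covered length ranged from 332 bp in HPB-ALL to 1931 bp in K562, with DND41 close behind at 1912 bp. The peaks formed 1 region of 2360 bp (11348373 to 11350732), and no other peak of any line lay within 5 kb of the window. The promoter held 33 CpGs in 300 bases.

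SOCS3 (chromosome 17, 76.348 to 76.361 Mb), the inhibitor of interleukin-6 type signals, was called in 6 lines and not in HPB-ALL. The best peak scored 628 in K562, 145 in SUP-B15 and 91.4 in REH. It scored 1026 in DND41, 200 in JURKAT and 422 in SIL-ALL. K562 (percentile 98.4, rank 97) and DND41 (percentile 99.2, rank 127) were the high lines. K562 covered 3307 bp in all, more than any line at any member other than SOCS2.

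SOCS3 had a further site that was shared by the same 6 lines. One region (76354204 to 76357084) was centred 5.36 kb from the 5′ edge of the window. The other (76348691 to 76349586) lay 11.9 kb from that edge, towards the 3′ end. In 5 of the 6 lines the first held the best peak. In SIL-ALL it was the second, with a score of 422 against 334 at the 5′ site. In the other lines the second site reached percentile 56.2 at most, in DND41. HPB-ALL had a peak in neither region, although 31 of its peaks lay within 1 Mb, as against 14 in K562 and 29 to 40 in the others. RefSeq places the divergent transcript SOCS3-DT within 5 kb of SOCS3.

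CISH (chromosome 3, 50.639 to 50.654 Mb), whose promoter carries the STAT letters shown above, was called in 4 lines, of which JURKAT was lost with equal lists, with scores below a list's median left out and with the common score floor. The best peak scored 238 in SUP-B15, 161 in DND41, 74.8 in JURKAT and 259 in SIL-ALL. Percentiles were 93.3, 75.8, 43.5 and 77.0 in the same order, and SUP-B15 also covered the most, 1288 bp. K562, REH and HPB-ALL had no CISH peak. These 3 lines had few peaks around it as well: 4 in K562, 3 in REH and 4 in HPB-ALL within 1 Mb, against 7 in SUP-B15, 29 in DND41, 30 in JURKAT and 21 in SIL-ALL. Whether the sparse surround and the missing CISH peak are linked was not tested. RefSeq lists MAPKAPK3, a kinase gene, within 5 kb of CISH, and 78 bp outside the window JURKAT had a further peak with a score of 156.

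PIM1 (chromosome 6, 37.133 to 37.148 Mb), a serine/threonine kinase induced by STAT5, was called in every line. The best peak scored 79.3 in K562, 182 in SUP-B15 and 63.2 in REH. It scored 367 in DND41, 780 in SIL-ALL, 161 in JURKAT and 1051 in HPB-ALL. Percentiles were 44.7, 89.4 and 42.5 in the 3 other lines and 93.3, 95.7, 84.0 and 98.5 in the T-ALL lines, so SUP-B15 lay above JURKAT and the groups overlapped. Ranks come from lists of unequal length and cannot show whether binding differs. HPB-ALL, low at SOCS1 and SOCS2 and without peaks at SOCS3 and CISH, had its best member peak here, of 1506 bp at rank 188. The main region (37137189 to 37139484) held all 7 lines, and a second of 283 bp held DND41 and HPB-ALL alone. With the common score floor, and with scores below a list's median left out, PIM1 was lost in K562 and REH.

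No member region separated the T-ALL lines from the others. The 126 peaks merged into 19 regions. All 7 lines shared 4 of them (21.1%), against 2.44% of the 29071 regions of the whole series. Another 8 (42.1%) held a peak of 1 line alone, against 58.2%. None of the 19 held all 4 T-ALL lines and no other line (2.25% of all regions did), and none held K562, REH and SUP-B15 without a T-ALL line (0.193%). By exact permutation (two-sided, 35 ways to set 4 lines against 3), 0 of the 19 regions had an unadjusted p below 0.05, against 2.45% of all regions. Only a complete split of the groups can reach such a p here, so this count restates those just given. At these shares few or none of 19 regions would show such a split, so the counts of 0 do not set the members apart. The smallest p this design allows is 0.0286, the smallest value adjusted over all regions (Benjamini-Hochberg) was 0.980, and no region of the series passed the adjustment. With that smallest p, a region could pass only if most regions of the series separated the groups perfectly. The adjusted values therefore cannot decide about any single region.

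The other genes of the pathway were counted in the same way. Of 35 further receptors, kinases, STATs, inhibitors and targets, 32 had a window whose length matched the RefSeq gene within 10% and were used. SOCS7 and the interleukin-6 signal transducer IL6ST were called in all 7 lines (2 of 32, 6.25%), against 4 of the 10 members (40.0%). With equal lists these counts were 0 of 32 and 2 of 10. IL6ST stood low in K562, REH and SUP-B15, at percentiles 8.21, 18.1 and 18.7. The length check was not applied to the members: window minus gene length was -38.3 kb for SOCS2 and -91.5 kb for JAK1. SOCS1, SOCS3 and STAT5A would not have met it either (windows of 12, 13 and 29 kb, genes of 1788, 4148 and 24505 bp). Of the members called in all 7 lines only PIM1 would have met it. The shares of members and other genes therefore come from sets filtered by different rules. PIM3, left out by the check, was called in all 7 lines. Of the 32 genes used, the number called was 11 in K562, 12 in SUP-B15 and 11 in REH, and 17 in DND41, 22 in SIL-ALL, 25 in JURKAT and 21 in HPB-ALL. The T-ALL lists are longer, and with 5942 top peaks each the numbers were 11, 10 and 8 against 9, 14, 13 and 12 in the same order. HPB-ALL, the line with the fewest members on the full lists, was thus not the lowest here. The difference between members and other genes was not tested.

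STAT4, SOCS4, PIAS1 and IFNAR1 (4 of 32, 12.5%) had peaks in all 4 T-ALL lines and no other line, and no pathway gene had the reverse. Of the 25 kb tiles 0.51% had this pattern. The tiles include gene-free sequence, whereas the pathway windows each hold a gene and run from 14 to 153 kb. The 2 shares are therefore not alike and are given as a description only. None of the 10 members had it, and the difference was not tested. SOCS4, an inhibitor, reached percentile 91.4 in HPB-ALL, 87.9 in DND41, 77.8 in SIL-ALL and 57.0 in JURKAT. STAT4, the effector of interleukin-12, was weaker, at 67.8 in SIL-ALL, 53.8 in DND41, 47.5 in JURKAT and 2.37 in HPB-ALL. With equal lists the count was 0. With the common floor the count was 5 of 32. SOCS4 and PIAS1 still had this pattern and STAT4 and IFNAR1 did not, while the genes that gained it included STAT3 and IL6ST. The receptors IL2RG, IL21R, CSF1R and CSF2RB had no peak in any line, the pattern of IL7R. JAK2 and SH2B3 matched FLT3 in all 7 calls, with K562 as the line without a peak. Calls that match over 7 lists describe those lists only.

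**Figure D4:**
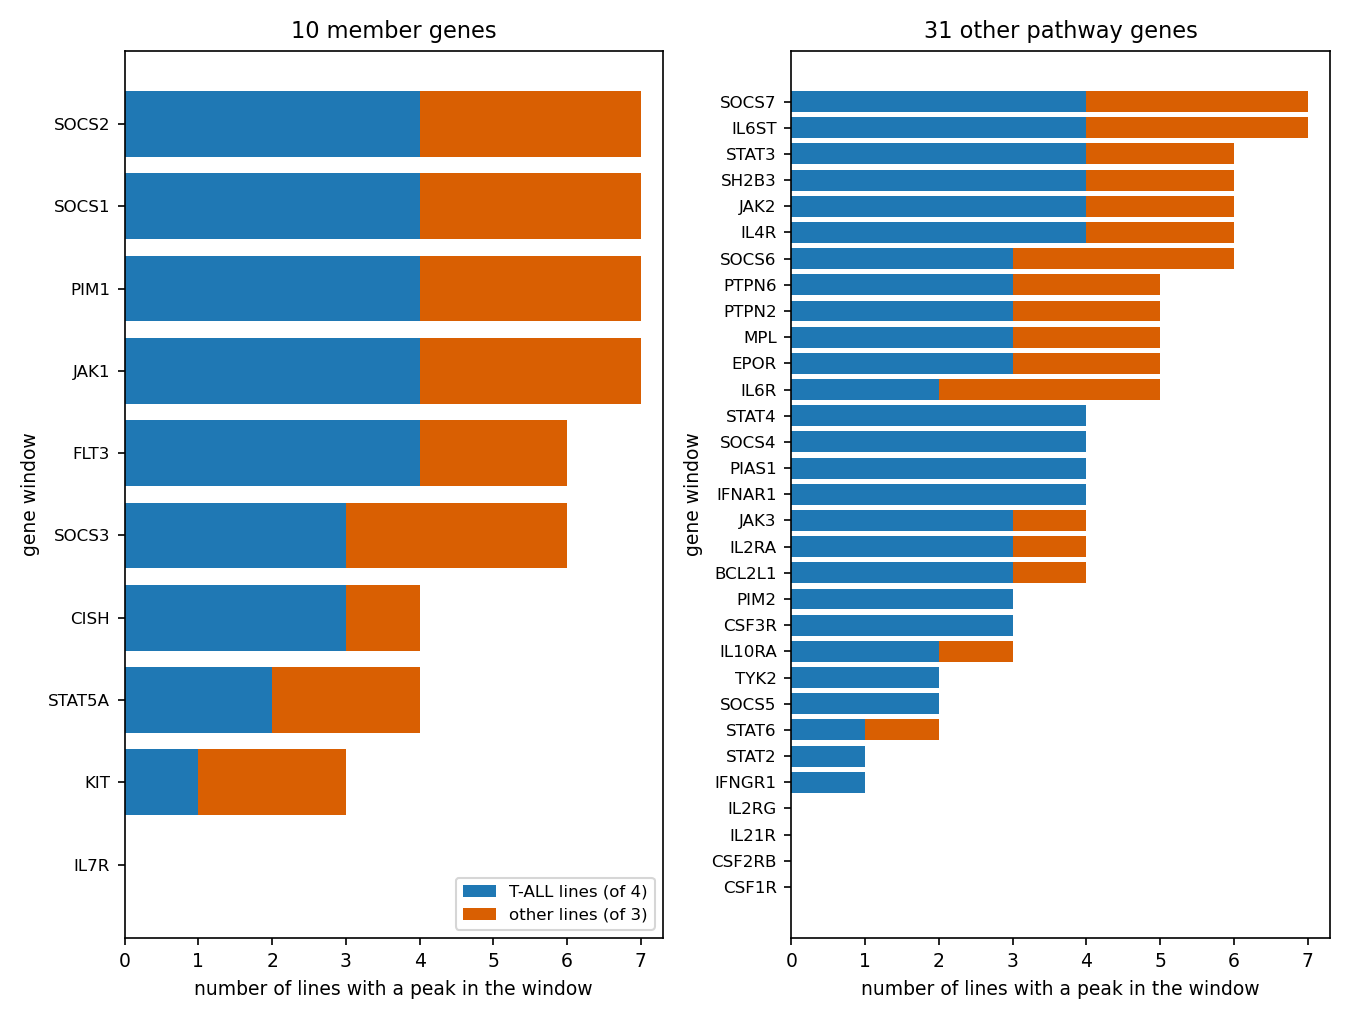
Number of lines with a KDM2B peak in the window of each gene, T-ALL lines in blue and the 3 other lines in orange, for the 10 members (left) and 31 of the other pathway genes (right). Of the members 4 reach all 7 lines; of the other genes SOCS7 and IL6ST do, and 4 receptors have none.

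The members' promoters were mostly rich in CpG. Over 9 members the median was 33 CpGs in 300 bases, against 14 over all promoters, and the GC content had a median of 70.3% against 58.7%. PIM1 held 39, KIT 38, FLT3 34, SOCS1 and CISH 33 each, SOCS3 17, JAK1 15, STAT5A 3 and IL7R 0. The 2 members with the fewest CpGs were the one without a peak and the one whose highest percentile was lowest, STAT5A. No promoter entry was placed on hg19, so none is known to lie at the peaks. For JAK1 and STAT5A the window minus gene length (-91.5 and 4.5 kb) also lay outside the range of the members named above. KIT, with more CpGs than SOCS1, was called in 3 lines and SOCS1 in 7, so the 2 values did not run in parallel across all members. A link between CpG content and the number of lines was not tested. Of the other pathway genes 27 had an entry: those with no peak held 2 to 8 CpGs (3 genes, median 4), those called in 1 to 3 lines 3 to 29 (7 genes, median 23) and those called in 4 or more lines 1 to 47 (17 genes, median 20). The median was thus no higher in the last group than in the one before. The sequences are those of the reference, and methylation of these promoters in the lines was not analysed here.

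**Figure D5:**
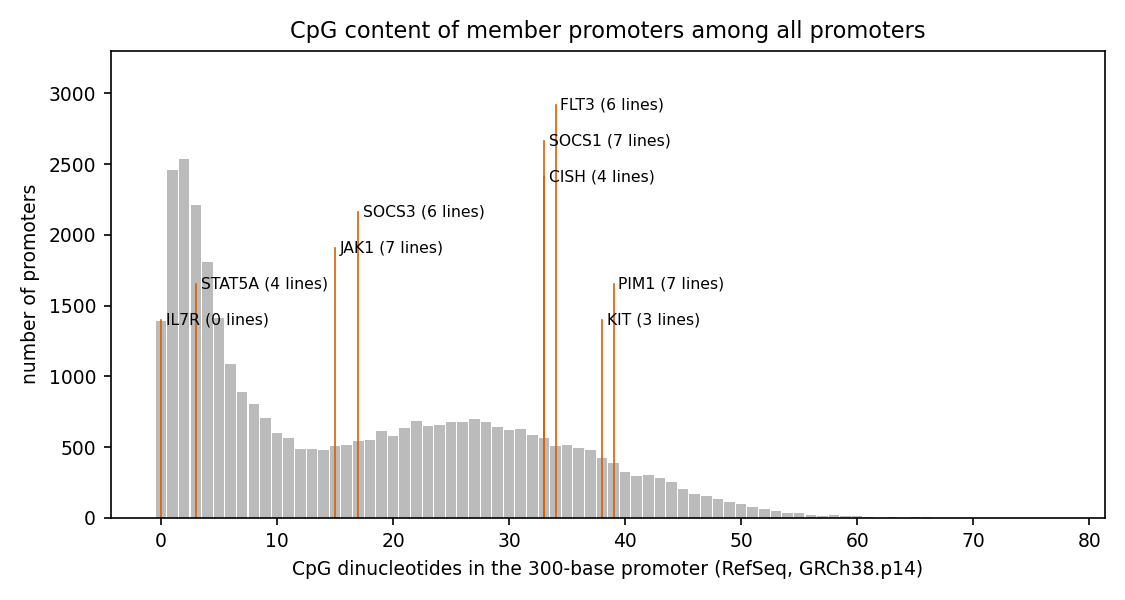
Histogram of the number of CpGs in 35116 RefSeq promoters of 300 bases (grey bars, number of promoters), with 9 members marked by orange lines and the number of lines in which each had a peak. IL7R (0 CpGs, 0 lines) and STAT5A (3 CpGs, 4 lines) lie at the left, and PIM1, KIT, FLT3, SOCS1 and CISH lie between 33 and 39.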

How the data were processed

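KDM2B ChIP-seq peak lists of 7 leukaemia lines were used, and the 5 input libraries (K562, REH, SUP-B15, HPB-ALL and SIL-ALL) were not analysed here. DND41 and JURKAT have no input library in the series. The submitters' processing notes name FastQC 0.10.1 for read quality, Bowtie 1.1.1 for alignment, and hg19 as build. Peak names in the deposited lists begin with MACS, while the version of the caller, its control and its cut-off were not given in the sources used here. The score is the authors' deposited value per peak, of unstated unit, and was used to rank or filter peaks within a list.

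Windows and genes were chosen with earlier results of these data known. Windows of the 35 other pathway genes were typed from knowledge of hg19 and kept where their length less 10 kb lay within 10% of the RefSeq gene length on GRCh38.p14, a check on length alone that left out STAT5B, IL2RB and PIM3. All 10 members are described in every line, and pathway genes are named if called in all 7 lines, in the T-ALL lines only, in no line, or in the same lines as a member. Peaks of all lists were merged at 1 bp overlap, and the exact permutation test ran over every merged region, after a check on simulated data. Of the pathway genes 1 is counted in the totals and is not reported here by name. Lineage is background knowledge. P-values measure the spread between lines, 1 culture each. Depth is unknown, so no interval was computed. Python 3.11.15, numpy 2.4.6, pandas 2.3.3 and matplotlib 3.10.9 were used.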

Additional observations from a re-analysis of the deposited data

Results flagged for a closer look

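In 37 sets of 7 or 4 lines with a value in each, 6 had a line far from the rest, and several share a gene or line. A nominal rate gives about 1.85, but it holds only for independent sets of normally distributed values. These sets share lines and genes, and a line that differs from tied others is always flagged. The 6 therefore cannot be compared with chance. HPB-ALL was low at SOCS2, at percentile 48.0 (next 95, rounded, over 7 lines and 99 among T-ALL lines). It was also low in the number of windows with a peak among T-ALL lines (5, where the other 3 had 8). With the common score floor that number was 5 in HPB-ALL, 6 in JURKAT, 7 in DND41 and 8 in SIL-ALL. With equal lists it was 3, 6, 7 and 7 in the same order. JURKAT was low at FLT3 among T-ALL lines, at percentile 15.8 (next 87.1). The bases covered at KIT stood out in JURKAT (708 bp, with 0 in the other T-ALL lines), and those at STAT5A in SIL-ALL (815 bp, next 326 bp). No explanation was tested.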

How the results depend on the processing

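Of 231 alternative values, 197 stayed within 1.5 times the reported count and 34 moved. The number of windows called in every line or in no line was added after the data were seen, with the same alternatives. Of 4 windows called in every line, equal lists (the 5942 top-scored peaks) left 2 and leaving out scores below a list's median left 1, and regions of every line fell from 4 to 1 in both. IL7R had no peak under any alternative, and the count of regions of the T-ALL lines only was 0 under each.

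With equal lists HPB-ALL had 3 windows and 4 peaks, and peaks were 13 in DND41, 7 in JURKAT and 12 in SIL-ALL. Pathway genes were then 9 in DND41, 14 in SIL-ALL, 13 in JURKAT and 12 in HPB-ALL, and regions of 1 line 5. With each list's median HPB-ALL had 3 windows and 4 peaks, DND41 15 peaks, JURKAT 8, and regions of 1 line were 2, with pathway genes 5 in K562 and 7 in REH. The common floor gave 11 peaks in REH and 8 in JURKAT, and pathway genes 5 in K562 and 6 in REH. Merging within 500 bp gave peaks of 7 in K562, 10 in REH, SUP-B15 and DND41, 11 in SIL-ALL, 9 in JURKAT and 6 in HPB-ALL, and 3 regions of 1 line. With each line left out, regions of 1 line ranged from 4 to 10, lowest without SIL-ALL. Shorter lists can only lose peaks, and the unknown depth limits every absence. No paired analysis was made, because each line had 1 KDM2B library and the input libraries were not analysed.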
